A study of Mus musculus with 391 samples.

Results

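The 10 genes described here encode transcription factors known from vascular endothelium: the SoxF genes Sox7, Sox17 and Sox18, the ETS genes Erg, Fli1 and Ets1, the zinc finger gene Gata2 with the basic helix-loop-helix gene Tal1 (also called SCL), and the forkhead genes Foxf2 and Foxc1. They were chosen by name, with earlier results of these data known, and all 10 were found among the 56941 genes of the deposited count table. Vascular fragments of the brains of adult mice were taken apart into single cells, which were sorted into wells and sequenced by Smart-seq2. This protocol reads whole transcripts and adds no molecular identifiers. The endothelial class holds 111 cells, with the code CP-EC in the deposited cell table, and the microglia class holds 280 cells, with the code MG. The labels give no strain, sex, genotype, treatment, animal or expansion of the codes, so each class counts as 1 sample, and no test, standard error or p-value was made from cells.

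SoxF proteins bind DNA through a high mobility group domain and act partly in place of each other in arterial and lymphatic development. ETS proteins bind a GGAA core that occurs in nearly all known endothelial enhancers and promoters. Gata2 and Tal1 are best known from blood stem cells, where they meet on DNA in a complex bridged by Lmo2 and Ldb1, and both also act in endothelium. In mouse brain Foxf2 and Foxc1 are known from mural cells and meninges as well as from vessels, and both are needed for normal brain vessels.

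The RefSeq promoter table, which is on build GRCm38.p6, held 9 start sites for 5 of the 10 genes (Erg, Gata2, Tal1, Foxf2 and Foxc1). The 250 bases before a start were searched on both strands for 5 motifs. The letters CCGGAA, an ETS motif, occurred in 12.03% of all 32851 promoters of the table over the same length. A GATA motif, searched as AGATAA, was present in 9.9875% of these promoters over the same window. A forkhead motif was searched as TGTTTA and was present in 12.03% of the promoters of the table. A SOX motif was searched as ACAATG and was present in 10.691% of the promoters of the table. An E-box of SCL was searched as CAGATG and was present in 14.444% of the promoters of the table. Of the 9 starts, 3 held a match, and no match overlapped another. The share of all promoters with a match to any of the 5 motifs was not counted. Each share above is for a single motif, so 3 of 9 cannot be set beside it, and nothing is concluded from that count. Foxf2 and Foxc1 are shown because they are neighbours on chromosome 13 with unlike levels in endothelial cells, and the Tal1 and Erg starts because they hold GATA or SOX letters. Capitals mark the matches. A match is a description of the sequence only.
Foxf2, chr13:31625566-31625815, plus strand: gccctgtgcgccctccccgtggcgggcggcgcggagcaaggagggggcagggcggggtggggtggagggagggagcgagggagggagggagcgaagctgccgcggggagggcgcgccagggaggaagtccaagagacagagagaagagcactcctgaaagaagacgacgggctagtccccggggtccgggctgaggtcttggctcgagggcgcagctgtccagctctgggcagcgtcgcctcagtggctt
Foxc1, chr13:31806396-31806645, plus strand: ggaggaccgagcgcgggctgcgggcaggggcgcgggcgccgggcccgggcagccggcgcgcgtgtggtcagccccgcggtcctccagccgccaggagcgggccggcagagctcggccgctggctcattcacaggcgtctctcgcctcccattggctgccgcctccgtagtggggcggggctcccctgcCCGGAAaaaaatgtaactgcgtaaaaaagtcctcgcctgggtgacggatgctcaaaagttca
Tal1 start 1, chr4:115056176-115056425, plus strand: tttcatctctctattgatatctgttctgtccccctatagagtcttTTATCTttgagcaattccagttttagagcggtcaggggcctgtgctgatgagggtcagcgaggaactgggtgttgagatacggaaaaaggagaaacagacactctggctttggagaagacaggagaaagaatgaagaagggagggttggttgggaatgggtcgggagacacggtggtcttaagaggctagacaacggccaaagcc
Erg start 3, chr16:95459349-95459598, minus strand: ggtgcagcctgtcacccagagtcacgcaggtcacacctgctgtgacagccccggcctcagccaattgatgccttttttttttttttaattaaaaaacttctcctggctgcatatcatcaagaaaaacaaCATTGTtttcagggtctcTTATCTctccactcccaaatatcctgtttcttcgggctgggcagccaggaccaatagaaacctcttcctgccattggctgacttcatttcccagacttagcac
The Foxc1 window held 1 ETS match, the Tal1 window 1 GATA match on the opposite strand, and the Erg window 1 SOX and 1 GATA match on the opposite strand. The Foxf2 window held none of the 5 motifs as searched. CCGGAA is only 1 form of an ETS motif, and other letters around the GGAA core were not searched. The Foxf2, Tal1 and Erg windows hold unmarked GGAA letters on 1 strand or the other, so no lack of ETS sites is implied.

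Endothelial cells held 21361227 gene reads in all, and microglia-class cells 47508014. An endothelial cell had 83954 to 602175 gene reads, with a median of 174345, and a microglia-class cell 39876 to 504875, with a median of 146506. Plates, read from the start of the column names, held 7 (A), 10 (B), 50 (C) and 44 (D) endothelial cells, and 133 (A) and 147 (B) microglia-class cells. All 391 wells were distinct and no column repeated another. The sum of 18 endothelial core markers such as Pecam1 and Cdh5 was 20961 to 65726 CPM over endothelial cells and 12.7 to 4887 CPM over microglia-class cells. The sum of 18 microglia and macrophage core markers was 0 to 2705 CPM over endothelial cells and 5710 to 94008 CPM over microglia-class cells. None of the 36 core markers was at 0 in either class. The 6 fenestrated endothelium markers such as Plvap and Esm1 summed to 21025 CPM in endothelial cells and 25.8 CPM in the microglia class. CPM is the reads of a gene per 1000000 gene reads, pooled over the cells of a class unless a single cell is named. Ranges in parentheses after a CPM value, a ratio or a share of cells are exact 95% intervals. They are Poisson for a level, conditional binomial for a ratio and Clopper-Pearson for a share of cells. They cover counting error only, since copies of one molecule cannot be told from separate molecules.

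The endothelial level exceeded that of the microglia class by 4-fold or more, on the log2(CPM + 1) scale, for 8 of the 10 genes. Over the 14989 genes at 1 CPM or more in either class, 11.7% were as much higher in endothelial cells, and 19.9% as much higher in the microglia class. No member was 4-fold higher in the microglia class, and Fli1 and Foxc1 lay between. The 10 genes were chosen as endothelial factors with earlier results of these data known, so the count of 8 is a description only. The median log2 ratio, endothelial over microglia class, was 6.01 for the 10 genes and -0.36 for all genes tested. Within plate A, 7 of the 10 were 4-fold higher in endothelial cells (all genes: 10.9%), and within plate B 8 (all genes: 11.5%). In those plates 46.5% and 48.4% of all genes were 4-fold higher in the microglia class, beside 7 and 10 endothelial cells.

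**Figure D1:**
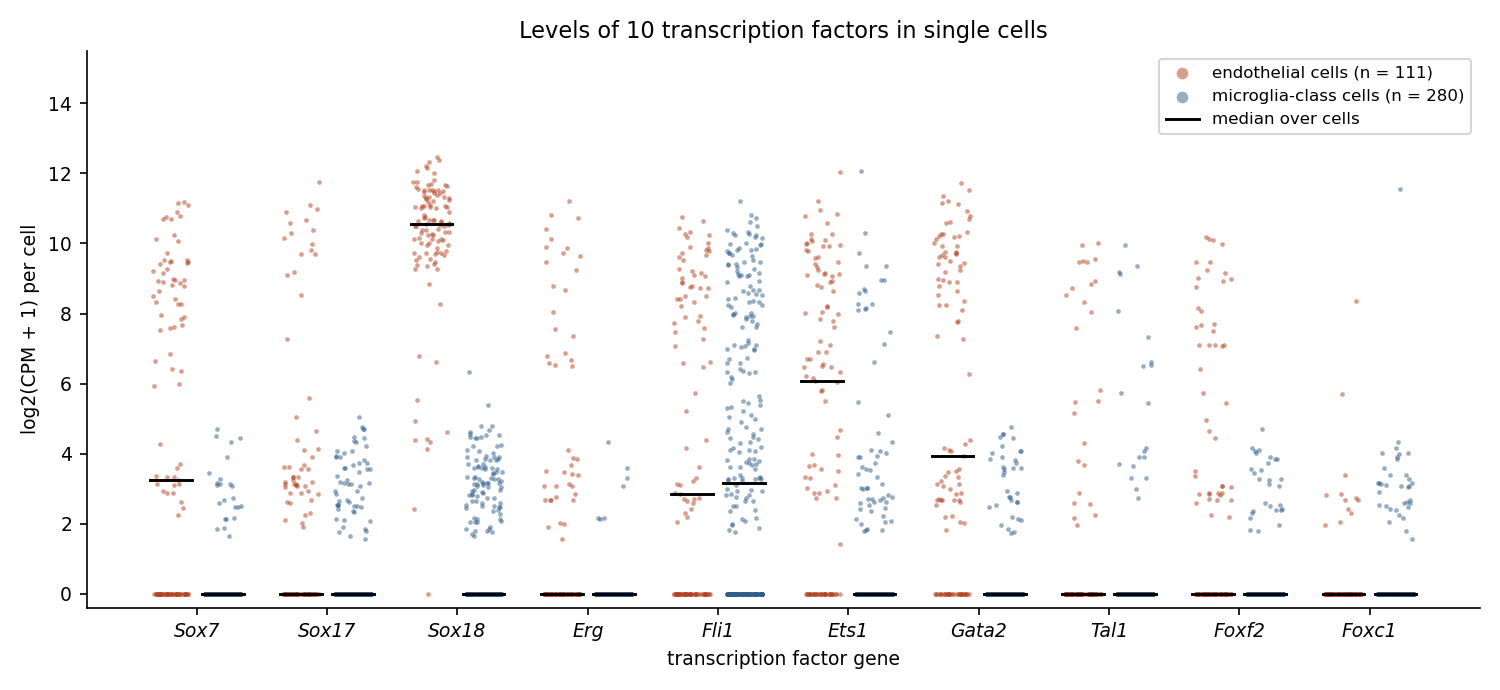
Each point is 1 cell: 111 endothelial cells on the left and 280 microglia-class cells on the right of each gene, with log2(CPM + 1) on the vertical axis and a bar at the median. Sox18 is high in nearly every endothelial cell, while most other genes have a high band and a large group of cells at 0, and Foxc1 has 1 high cell in each class. Fli1 is the one gene with a broad high band in both classes.

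Sox18, needed for lymphatic and vascular development, was the most evenly detected member. Over endothelial cells its level was 0 to 5712 CPM with a median of 1501, and over microglia-class cells 0 to 79.3 CPM with a median of 0. At least 1 read was present in 110 of 111 endothelial cells and at least 10 reads in 102, or 91.9%. No microglia-class cell reached 10 reads, for which the upper Clopper-Pearson bound is 1.31% of the class, although 35.7% had a single read or more. The pooled level was 1679 CPM (1662 to 1696) in endothelial cells, against 2.88 CPM (2.42 to 3.41) in the microglia class, a ratio of 582 (492 to 694).

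The Sox18 level was 2973, 2341, 1485 and 1587 CPM in the endothelial cells of plates A, B, C and D, against 2.92 and 2.86 CPM in the microglia-class cells of plates A and B. Every endothelial plate lay far above both microglia plates. The CV over endothelial cells, the standard deviation divided by the mean, was 0.693, and the median CV of the 143 genes within 2-fold of the same pooled level was 0.846. Sox18 thus varied somewhat less from cell to cell than most genes of its level.

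Sox7, a SoxF factor of early blood and vessel formation, was high in part of the endothelial cells and low or at 0 in others. Sox7 had a read in 58.6% of endothelial cells, beside a median of 56.8% for the 1183 genes within 2-fold of its pooled level. Over endothelial cells it was at 0 to 2318 CPM with a median of 8.48, and over microglia-class cells at 0 to 25.1 CPM with a median of 0. In 49 endothelial cells (44.1%, 34.7 to 53.9) it had 10 reads or more, with a median of 492 CPM in those cells, and in 16 it had 1 to 9 reads, with a median of 7.79 CPM. No microglia-class cell reached 10 reads.

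The pooled Sox7 level was 294 CPM (287 to 301) in endothelial cells, against 0.547 CPM (0.358 to 0.802) in the microglia class, a ratio of 537 (366 to 823). By plate it was 788, 457, 248 and 250 CPM in endothelial cells of plates A to D, against 0.477 and 0.586 CPM in microglia-class cells of plates A and B. The plates of the 2 classes did not overlap, and plates A and B, with few endothelial cells, stood above C and D.

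Sox17, a SoxF factor known from arterial endothelium, was carried by few cells at a high level. It was at 0 to 3476 CPM over endothelial cells and at 0 to 31.9 CPM over microglia-class cells, with a median of 0 in both. Only 18 endothelial cells (16.2%, 9.90 to 24.4) had 10 reads or more, and their median was 1078 CPM. In 36 further endothelial cells it had 1 to 9 reads, with a median of 7.79 CPM, close to the 7.95 CPM of the 57 microglia-class cells with 1 to 9 reads. Both groups were picked by the same 1 to 9 reads, so like medians follow from that choice and nothing is concluded from them.

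The pooled Sox17 level was 173 CPM (168 to 179) in endothelial cells, against 1.56 CPM (1.22 to 1.96) in the microglia class, a ratio of 111 (88.4 to 142). The 5 endothelial cells with the most Sox17 reads gave 45.5% of all its endothelial reads. Its CV was 2.79 in endothelial cells, and the median CV of 2063 genes of like level was 2.34, so Sox17 was the more uneven. By plate it was 217, 265, 175 and 145 CPM in endothelial cells of plates A to D, against 1.01 and 1.85 CPM in microglia-class cells of plates A and B. In the annotation used here 16.8% of the Sox17 exon bases overlap the predicted gene Gm37587 on the other strand, which had 0 reads in both classes.

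Taking the SoxF genes together per cell, at 10 reads or more, 48 of 111 endothelial cells had Sox18 alone and 37 had Sox7 with Sox18. All 3 genes were present in 9 cells, Sox17 with Sox18 in 8, Sox7 alone in 3, Sox17 alone in 1, and none of them in 5. In the microglia class 280 of 280 cells had none. Of the 18 endothelial cells with Sox17, 9 had Sox7, or 50.0%, and over all endothelial cells the share with Sox7 was 44.1%.

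**Figure D2:**
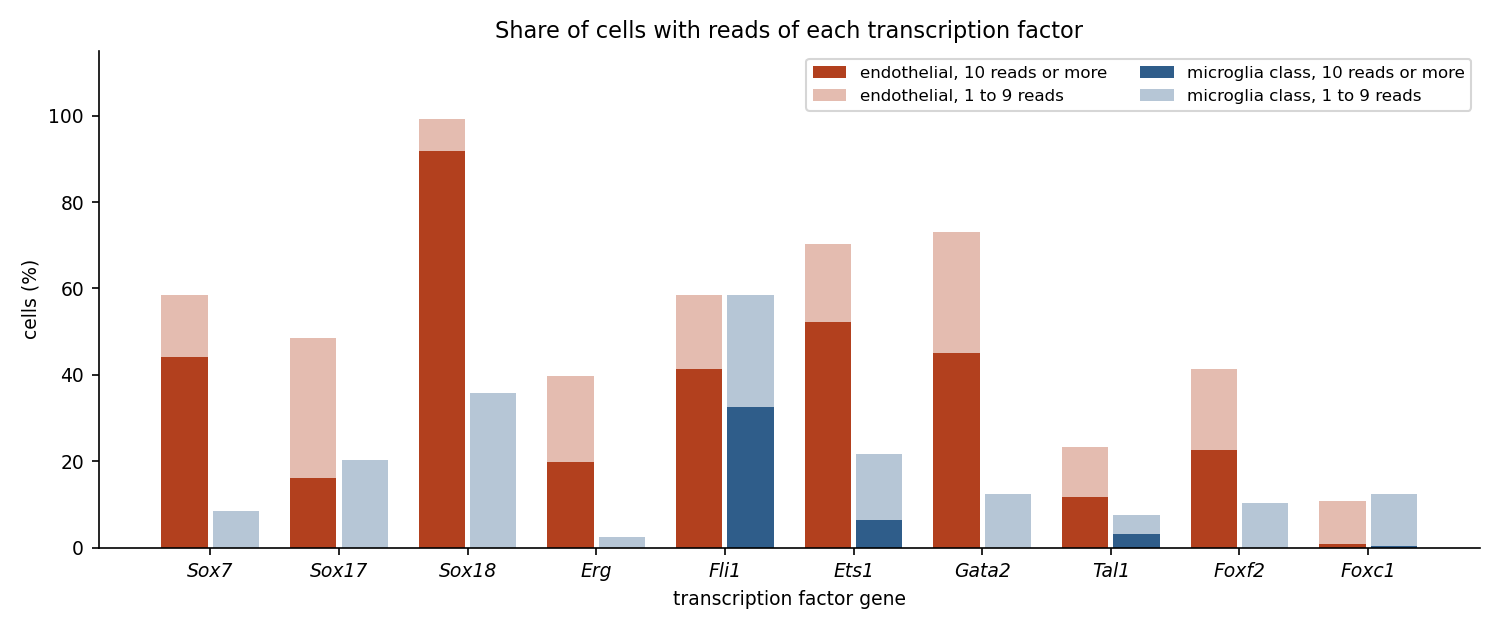
Bars give the percent of cells with 10 reads or more (dark) and with 1 to 9 reads (light) of each gene, for 111 endothelial cells (red, left) and 280 microglia-class cells (blue, right). Sox18 reaches 99.1% of endothelial cells with a read, and 6 of the 10 genes have no microglia-class cell with 10 reads or more.

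Among the ETS members, Erg, which maintains endothelial identity and junctions, had the lowest level in the microglia class. The Erg level was 0 to 2361 CPM over endothelial cells and 0 to 19.0 CPM over microglia-class cells, with a median of 0 in both. It had 10 reads or more in 22 endothelial cells (19.8%, 12.9 to 28.5) and in no microglia-class cell. The pooled level was 145 CPM (140 to 150) in endothelial cells, against 0.168 CPM (0.0727 to 0.332) in the microglia class, where the whole class held 8 reads.

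The pooled Erg ratio was 860 (436 to 1994), but the plates were unlike. It was 1.04, 367, 89.4 and 167 CPM in endothelial cells of plates A, B, C and D, against 0 and 0.260 CPM in microglia-class cells of plates A and B. In plate A the 7 endothelial cells held 1 Erg read and the microglia-class cells 0, so no fold is given there, and Erg was the member not counted as higher within that plate. On plate B 1 endothelial cell held 544 of the 779 Erg reads. Without the cell with the most Erg reads in each class, the endothelial level was 121 CPM, against 0.127 CPM in the microglia class.

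Fli1, an ETS factor of both endothelium and blood cells, was the member with nearly the same level in both classes. Single endothelial cells had 0 to 1740 CPM with a median of 6.15, and microglia-class cells 0 to 2360 CPM with a median of 8.02. At least 1 read was present in 58.6% of the cells of each class. At 10 reads or more there were 46 endothelial cells (41.4%, 32.2 to 51.2) and 91 microglia-class cells (32.5%, 27.0 to 38.3), with a median of 470 CPM in those endothelial cells and 405 CPM in those microglia-class cells. The single-cell values of the 2 classes overlapped over almost their whole range.

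The pooled Fli1 level was 231 CPM (225 to 238) in endothelial cells, against 199 CPM (195 to 203) in the microglia class, a ratio with an interval of 1.12 to 1.20. The direction differed between plates. In plate A it was 163 CPM in endothelial cells, against 228 CPM in the microglia class, and in plate B 471 CPM in endothelial cells, against 184 CPM in the microglia class. Plates C and D held 176 and 241 CPM in endothelial cells. The log2 ratio was -0.48 within plate A, 1.35 within plate B and -0.15 without plate B, so these data give no fixed direction for Fli1.

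Ets1, an ETS factor of angiogenic endothelium and lymphocytes, was high in endothelial cells and present in a small number of microglia-class cells. Single endothelial cells had 0 to 4214 CPM with a median of 66.8, and microglia-class cells 0 to 4258 CPM with a median of 0. It had 10 reads or more in 58 endothelial cells (52.3%, 42.6 to 61.8) and in 18 microglia-class cells (6.43%, 3.85 to 9.97). In those cells the median was 507 CPM in endothelial cells and 393 CPM in microglia-class cells. The microglia-class median was 309 CPM over 12 such cells on plate A and 652 CPM over 6 on plate B. Cells with fewer reads were left out of these medians, so they are no comparison of the classes as a whole.

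The pooled Ets1 level was 345 CPM (337 to 353) in endothelial cells, against 42.2 CPM (40.4 to 44.1) in the microglia class, a ratio of 8.18 (7.79 to 8.60). By plate it was 398, 503, 351 and 295 CPM in endothelial cells of plates A to D, against 43.1 and 41.7 CPM in microglia-class cells of plates A and B. In the microglia class 5 cells gave 63.3% of its Ets1 reads.

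Per cell, at 10 reads or more, 26 of 111 endothelial cells had Ets1 alone of these 3 ETS genes, 20 had Fli1 with Ets1, 19 Fli1 alone, 8 Erg with Ets1 and 7 Erg alone. All 3 were found in 4 cells, Erg with Fli1 in 3, and none in 24. In the microglia class 82 of 280 cells had Fli1 alone, 9 Ets1 alone, 9 both of these, and 180 none.

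Gata2, a zinc finger factor of blood progenitors and of endothelium, was high in many endothelial cells and nearly absent from the microglia class. Single endothelial cells had 0 to 3386 CPM with a median of 14.3, and microglia-class cells 0 to 26.2 CPM with a median of 0. It had 10 reads or more in 50 endothelial cells (45.0%, 35.6 to 54.8), with a median of 820 CPM in those cells, and in no microglia-class cell. The pooled level was 421 CPM (412 to 430) in endothelial cells, against 0.905 CPM (0.655 to 1.22) in the microglia class, a ratio of 465 (345 to 643).

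By plate Gata2 was at 439, 501, 555 and 255 CPM in endothelial cells of plates A to D, against 1.07 and 0.813 CPM in microglia-class cells of plates A and B. Plate D was the lowest endothelial plate, and all 4 lay above both microglia plates. On plate B 1 endothelial cell held 811 of the 1063 Gata2 reads. Mast cells and basophils also express Gata2, and the summed level of 7 of their markers was 3.04 CPM in endothelial cells and 7.35 CPM in the microglia class. Whether such cells gave Gata2 reads was not tested.

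Tal1, the SCL factor of blood and vessel formation, was found in few cells of either class. It was at 0 to 1023 CPM over endothelial cells and at 0 to 998 CPM over microglia-class cells, with a median of 0 in both. It had 10 reads or more in 13 endothelial cells (11.7%, 6.39 to 19.2) and in 9 microglia-class cells (3.21%, 1.48 to 6.01). The high cells of the 2 classes overlapped, as for Ets1.

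The pooled Tal1 level was 79.2 CPM (75.4 to 83.0) in endothelial cells, against 12.7 CPM (11.7 to 13.8) in the microglia class, a ratio of 6.22 (5.66 to 6.83). By plate it was 133, 63.2, 78.6 and 77.8 CPM in endothelial cells of plates A to D, against 21.8 and 7.78 CPM in microglia-class cells of plates A and B. On plate B 1 endothelial cell held all 134 Tal1 reads. In the microglia class 1 cell held 197 of the 605 Tal1 reads, and 5 cells held 82.6%. Without plate B the log2 ratio was 1.84, under the 4-fold mark.

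Gata2 and Tal1 were found together in few cells. At 10 reads or more, 45 of 111 endothelial cells had Gata2 alone, 8 had Tal1 alone, 5 had both and 53 had neither. Of the 13 cells with Tal1, 38.5% had Gata2, and over all endothelial cells the share with Gata2 was 45.0%.

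Foxf2, a forkhead factor needed for brain vessels, was found in part of the endothelial cells, with 1 plate that stood apart. Its level was 0 to 1159 CPM over endothelial cells and 0 to 25.2 CPM over microglia-class cells, with a median of 0 in both. It had 10 reads or more in 25 endothelial cells (22.5%, 15.1 to 31.4) and in no microglia-class cell. The pooled level was 98.4 CPM (94.2 to 103) in endothelial cells, against 0.631 CPM (0.426 to 0.901) in the microglia class, a ratio of 156 (109 to 231).

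By plate Foxf2 was at 78.0, 5.19, 122 and 97.0 CPM in endothelial cells of plates A to D, against 0.954 and 0.455 CPM in microglia-class cells of plates A and B. Plate B was low: none of its 10 endothelial cells had 10 reads, and the log2 ratio within it was 2.09, just past the 4-fold mark. Mural cells are a known source of Foxf2 in mouse brain. The summed level of 12 mural markers was 264 CPM in endothelial cells, with a median of 16.2 and a highest value of 8586 CPM over cells, and 26.8 CPM in the microglia class. Without the 6 endothelial cells over 500 CPM the log2 ratio of Foxf2 was 5.91, beside 5.93 with them. That cut was chosen after seeing the data, and whether mural cells gave Foxf2 reads was not tested.

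Foxc1, a forkhead factor of mesenchyme, meninges and vessels, was close to absent. It was at 0 to 324 CPM over endothelial cells and at 0 to 2993 CPM over microglia-class cells, with a median of 0 in both. It had 10 reads or more in 1 cell of each class. The pooled level was 3.65 CPM (2.89 to 4.56) in endothelial cells, against 4.67 CPM (4.08 to 5.33) in the microglia class, a ratio of 0.781 (0.596 to 1.02). By plate it was 1.04, 29.7, 1.37 and 0.114 CPM in endothelial cells of plates A to D, against 0.835 and 6.77 CPM in microglia-class cells of plates A and B. The ratio within plate B was 4.39 (3.26 to 5.84), so the direction differed from the pooled one.

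Single cells made most of that Foxc1 level. On plate B 1 endothelial cell held 60 of the 78 endothelial reads, and 1 microglia-class cell held 186 of the 222 reads of its class. Without these cells the level was 0.850 CPM in endothelial cells, against 0.759 CPM in the microglia class. The microglia-class cell, at 2993 CPM of Foxc1, had 9045 CPM of the macrophage core markers, 8948 CPM of 10 border-associated macrophage markers, 386 CPM of the endothelial core markers and 80.5 CPM of 7 fibroblast markers. No animal or second well ties this cell to a cell type, and its source was not tested.

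**Figure D3:**
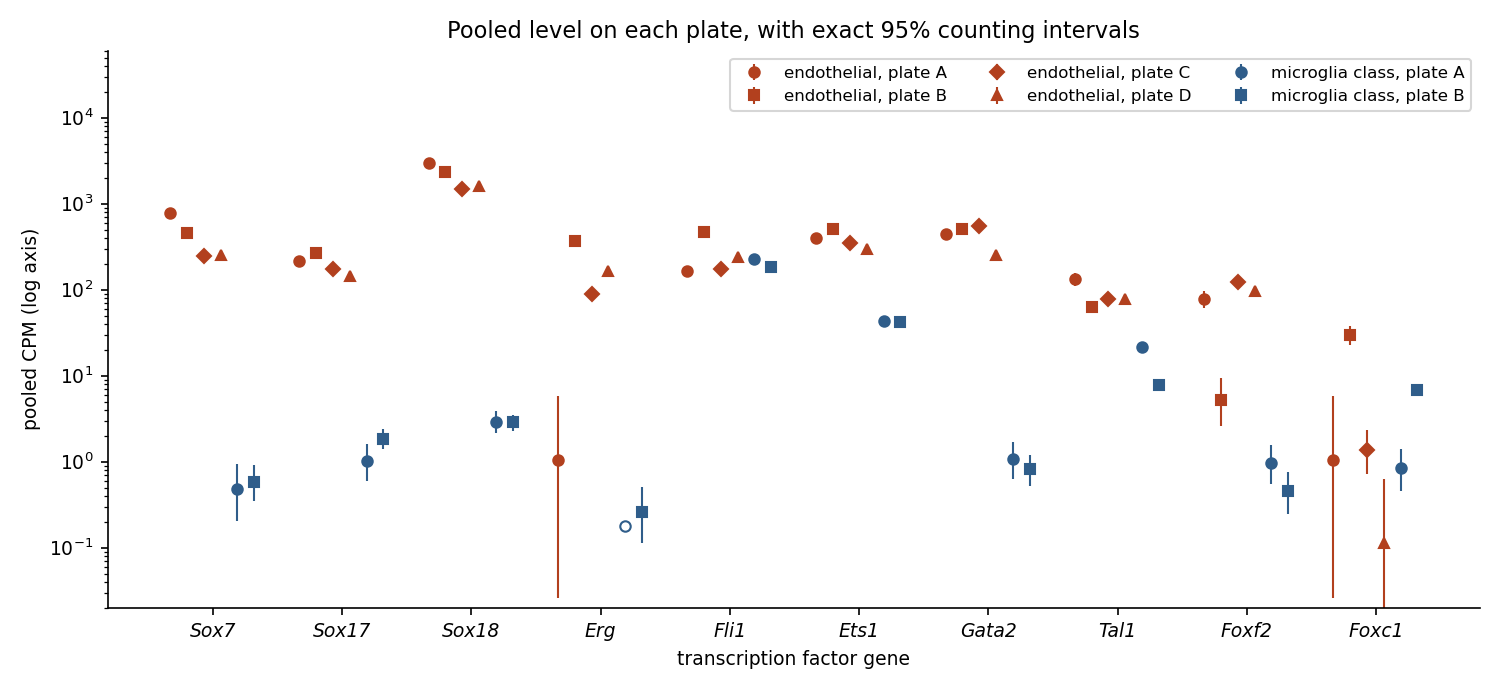
Pooled CPM of each gene (log axis) on each plate, with exact 95% counting intervals: red symbols are endothelial cells of plates A to D, blue symbols microglia-class cells of plates A and B. The open symbol is the level of 3 reads for Erg in plate A of the microglia class, which had 0 reads. Every endothelial plate lies above both microglia plates for Sox7, Sox17, Sox18, Ets1, Gata2, Tal1 and Foxf2. Foxf2 does so by little in plate B, at 5.19 CPM. The share of all genes with such a separation was not counted. Erg in endothelial cells of plate A is 1 read, at 1.04 CPM. This is above the open symbol but under the level of 3 reads in those endothelial cells, 3.12 CPM, which is not drawn. For Fli1 and Foxc1 the plates of the 2 classes overlap.

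Levels of different genes were set side by side only per length, as TPM, which are reads per base of merged exon scaled to the same total in each class. In endothelial cells Sox18 was at 3545 TPM, Sox7 at 305, Gata2 at 267, Fli1 at 227, Erg at 143, Foxf2 at 142, Ets1 at 139, Sox17 at 124, Tal1 at 61.8 and Foxc1 at 2.14 TPM. Sox18 stood alone at the top, since its lowest plate had 3225 TPM and the highest plate of Sox7 had 769 TPM. Foxc1 stood alone at the bottom, with at most 17.2 TPM on a plate, except that Erg and Foxf2 each had a plate below that. The 7 genes from Sox7 to Sox17 each overlapped their neighbours in the plate ranges. The lowest Sox7 plate, at 254 TPM, was above the highest plates of Ets1 (201), Sox17 (189) and Foxf2 (182 TPM). Tal1, with 48.9 to 97.8 TPM over plates, lay under the lowest Sox17 plate at 101 TPM.

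In the microglia class the order was another one. Fli1 led with 173 TPM, followed by Ets1 with 15.1, Tal1 with 8.80, Sox18 with 5.38 and Foxc1 with 2.42 TPM, and the other 5 genes were under 1 TPM. The place of Foxc1 rests on 1 cell of plate B, and on plate A it was at 0.421 TPM, below Foxf2 at 1.19, Sox17 at 0.626 and Gata2 at 0.586 TPM. On plate B Tal1 at 5.45 TPM and Sox18 at 5.42 TPM were level. The Fli1 level was 193 and 162 TPM on plates A and B of the microglia class, above every other member there on both plates.

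A low level of endothelial transcripts was present throughout the microglia class. For the 18 endothelial core markers, the microglia level was 0.0193% (Plvap) to 9.34% (Cldn5) of the endothelial level, with a median of 0.225%. For Erg, Sox18, Sox7, Gata2, Foxf2 and Sox17 it was 0.116%, 0.172%, 0.186%, 0.215%, 0.642% and 0.899%. These 6 genes lay within the range of the markers, Foxf2 below Ly6c1 at 0.738%, and Sox17 above it but below Pecam1, Eng, Egfl7 and Cldn5. No expression in the microglia class is inferred from shares in this range, and the source of these reads was not tested. The range is a wide one. Its upper markers had 10 reads or more in some microglia-class cells, Cldn5 in 26, Egfl7 in 36, Eng in 33 and Pecam1 in 8. For Ets1, Tal1, Fli1 and Foxc1 it was 12.2%, 16.1%, 86.1% and 128%, above all 18 markers in the pooled reads. Within plates A and B Cldn5 was at 27.4% and 15.0% of its endothelial level, above Ets1 at 10.8% and 8.30% and Tal1 at 16.4% and 12.3% in the same plates.

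Clusters made within the microglia class showed where the members present there were read. Cluster 1, with 132 cells, had a sum of 15947 CPM over the 10 border-associated macrophage markers. Cluster 3, with 51 cells, was led by Sall3 and Ecscr, with the parenchymal microglia markers Adgrg1, Slc2a5 and Sall1 next. Between the classes, Adgrg1 itself was 4-fold or more higher in endothelial cells. Cluster 2 held 63 cells led by Gpnmb, and cluster 4 held 34 cells led by Tnip3 and Napsa. The clusters were made from the same reads, so the levels are a description. Clusters made without the members gave other Ets1 levels, with 22.8, 57.0, 93.9 and 1.73 CPM in clusters of 133, 59, 54 and 34 cells, and Fli1 levels of 255, 187, 181 and 106 CPM.

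Fli1 was at 239, 214, 184 and 106 CPM in clusters 1, 2, 3 and 4, and 10 reads or more were present in 31.1%, 39.7%, 27.5% and 32.4% of their cells. Fli1 was read in all 4 clusters. Ets1 was less even in this clustering: it was at 4.40, 85.9, 99.9 and 1.73 CPM in clusters 1 to 4, with 10 reads or more in 2 of 132, 5 of 63, 11 of 51 and 0 of 34 cells. In cluster 2 a single cell gave 43.2% of the Ets1 reads, and in cluster 3 the top cell gave 22.0%.

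Tal1 was at 12.9, 14.8, 20.4 and 0 CPM in clusters 1 to 4, but 1 cell gave 95.2% of the reads in cluster 3. Foxc1 was at 10.9 CPM in cluster 1, where 1 cell gave 90.3% of the reads, and under 1 CPM in the others. Sox7, Sox17, Sox18, Erg, Gata2 and Foxf2 had no cell with 10 reads in any cluster.

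Per cell, 1 to 6 of the 10 members had 10 reads or more in an endothelial cell, with a median of 3, and 0 of 111 cells had none. In the microglia class the number was 0 to 3 with a median of 0, and 175 of 280 cells, or 62.5%, had none.

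**Figure D4:**
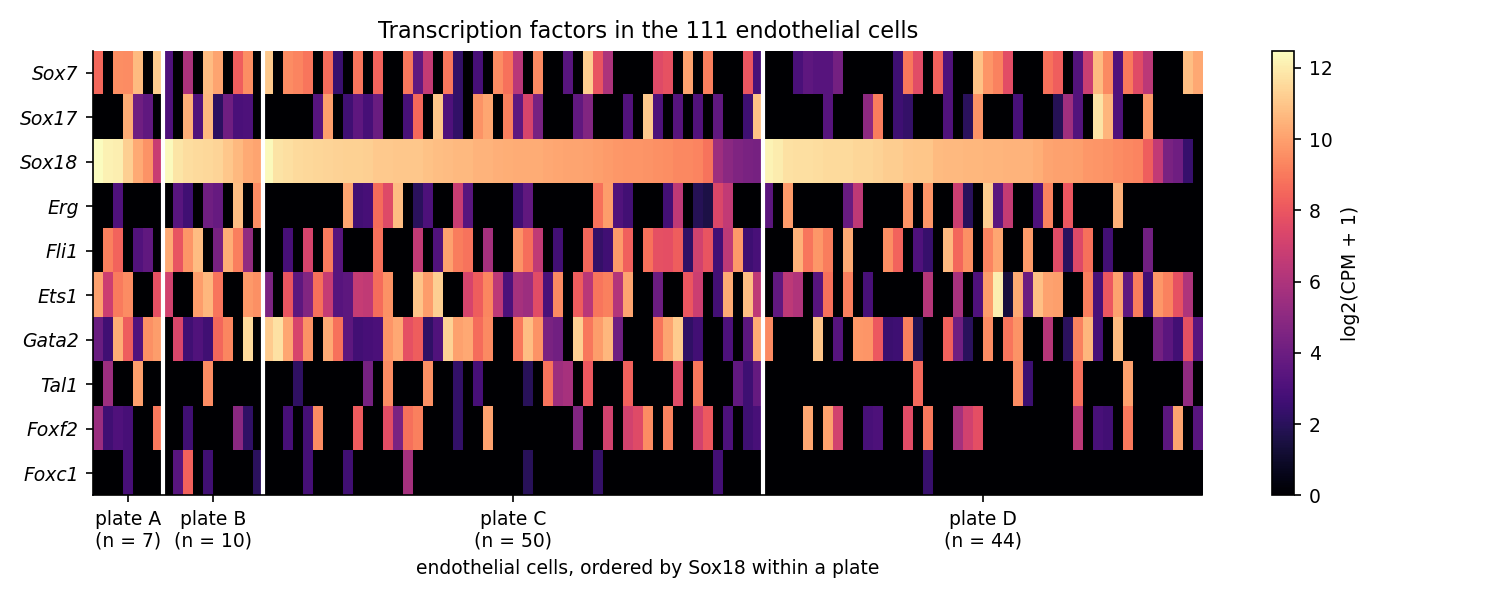
Each column is 1 of the 111 endothelial cells, grouped by plate and ordered by Sox18 within a plate, and each row is a gene, with color giving log2(CPM + 1). Sox18 is high across almost all columns, and the bright cells of the other genes are scattered with no shared block of columns.

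No pair of members was strongly correlated over single endothelial cells. The 45 pairs had Spearman rank correlations of -0.19 (Sox18 with Tal1) to 0.26 (Erg with Foxc1) over 111 cells, and 44 pairs were under 0.2 in size. After the mean of each plate was removed the range was -0.19 to 0.11. The 111 cells are 1 class from 4 plates, their depth differs severalfold, reads of single genes are sparse, and so weak a correlation is no finding. The correlation of a member's CPM with the gene reads of the cell was -0.13 (Sox18) to 0.23 (Erg).

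Sox7, Ets1, Gata2 and Tal1 varied over endothelial cells about as much as other genes of their level. Fli1 and Foxf2, like Sox18, varied somewhat less. A lower CV was found in 19.2%, 24.8% and 28.0% of the genes of like level for Fli1, Foxf2 and Sox18. The CV was 1.73 for Sox7, 1.61 for Fli1, 1.74 for Ets1, 1.56 for Gata2, 2.43 for Foxf2 and 2.95 for Tal1. The median CV of genes within 2-fold of the same pooled level was 1.88, 2.09, 1.77, 1.61, 3.01 and 3.25 beside them. Erg at 2.85 lay above its median of 2.55, as Sox17 did. Zeros beside high values were the usual form for genes of these levels in these cells.

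Cells were also drawn down to an equal depth of 71000 reads, at which 34 microglia-class cells were too shallow and all endothelial cells were kept. At that depth the share of endothelial cells with a read was 98.2% for Sox18, 64.9% for Ets1, 56.8% for Gata2, 51.4% for Sox7 and 47.7% for Fli1. It was 36.0% for Sox17, 32.4% for Foxf2, 25.2% for Erg, 20.7% for Tal1 and 3.60% for Foxc1. For Fli1 the thinned share was 47.7% of endothelial cells and 51.6% of microglia-class cells.

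For the 5 members read in at least 50% of endothelial cells, the genes with the most similar pattern were looked up among 1192 genes read as widely. They were Nfe2l2, Tmbim4 and Atxn7l3b for Sox7 (rho 0.28, 0.26 and 0.26) and Malat1, Esm1 and Car4 for Sox18 (0.31, 0.30 and 0.30). They were Psmd3, Txn2 and Srsf7 for Fli1 (0.32, 0.31 and 0.30), Arf4, Cox7a2 and Oaz1 for Ets1 (0.33, 0.31 and 0.31), and Hnrnpk, Ifnar2 and Son for Gata2 (0.33, 0.32 and 0.32). All were highest of 1192 values over 111 cells and stayed low, and none was another member.

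The relatives of the members are given beside the shares of all genes, 11.7% higher in endothelial cells and 19.9% higher in the microglia class. Of 17 other Sox genes, 7 were at 1 CPM or more in either class, 2 of them 4-fold higher on the endothelial side and 1 on the microglia side, with a median log2 ratio of -1.13 beside -0.36 for all genes. Sox13, a SoxD gene, was at 170 CPM in endothelial cells, against 0.316 CPM in the microglia class, and Sox11, a SoxC gene of progenitors, was at 24.0 CPM, against 0.0210 CPM. Only 5.41% of endothelial cells had a read of Sox11, and those of plate A had 0 CPM of Sox11. Sox4, its SoxC relative, was at 6.51 CPM in endothelial cells, against 53.1 CPM in the microglia class. Sox9, known from astrocytes and cartilage, was at 3.65 CPM in endothelial cells, against 0.189 CPM in the microglia class, but had 0 reads in the endothelial cells of plates A and B.

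Of 23 other ETS genes, 17 were measured, 2 of them 4-fold higher on the endothelial side and 6 on the microglia side, with a median log2 ratio of -0.92. Elk3, a ternary complex factor, was at 449 CPM in endothelial cells, against 44.0 CPM in the microglia class, and Ets2 was at 281 CPM, against 101 CPM. Spi1, which encodes the myeloid factor PU.1, was at 0.281 CPM in endothelial cells, against 861 CPM in the microglia class. The repressor gene Etv3 was at 11.2 CPM in endothelial cells, against 259 CPM in the microglia class.

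Of 18 partners and relatives of Gata2 and Tal1, 11 were measured, 3 of them 4-fold higher on the endothelial side and 2 on the microglia side, with a median log2 ratio of 0.33. Ldb2, a LIM-domain-binding adaptor, was at 698 CPM in endothelial cells, against 0.147 CPM in the microglia class. Lyl1, the closest relative of Tal1, was at 5.38 CPM in endothelial cells, against 499 CPM in the microglia class, the opposite direction to Tal1 itself. Runx1, a blood cell factor, was at 0.234 CPM in endothelial cells, against 354 CPM in the microglia class. The E-protein gene Tcf4 was at 494 CPM in endothelial cells, against 254 CPM in the microglia class. Its direction differed between plates, with 444 CPM in endothelial cells against 266 CPM in the microglia class on plate A, and 160 CPM against 248 CPM on plate B.

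Of 42 other forkhead genes, 15 were measured, 5 of them 4-fold higher on the endothelial side and 2 on the microglia side, with a median log2 ratio of 1.12. Foxo1, an endothelial growth brake, was at 140 CPM in endothelial cells, against 30.5 CPM in the microglia class. On plate A Foxo1 was at 90.4 CPM in endothelial cells against 48.4 CPM in the microglia class, under the 4-fold mark. On plate B it was at 513 CPM against 20.8 CPM. Foxp1 was at 252 CPM in endothelial cells, against 115 CPM in the microglia class. Foxn3 was at 117 CPM in endothelial cells, against 134 CPM in the microglia class, and Foxn2 at 61.3 CPM, against 29.6 CPM. Foxn2 had the opposite direction within plates, with 18.7 CPM in endothelial cells against 29.7 CPM in the microglia class on plate A, and 16.5 CPM against 29.6 CPM on plate B. Foxn3 was at 98.7 CPM in endothelial cells against 181 CPM in the microglia class on plate A, and at 5.19 CPM against 109 CPM on plate B. Chosen after their values were seen, Foxf1, the paralogue of Foxf2, was at 57.3 CPM in endothelial cells, against 0.589 CPM in the microglia class, and Foxq1, which lies beside Foxf2 and Foxc1 in the mouse genome, was at 10.3 CPM, against 1.12 CPM.

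**Figure D5:**
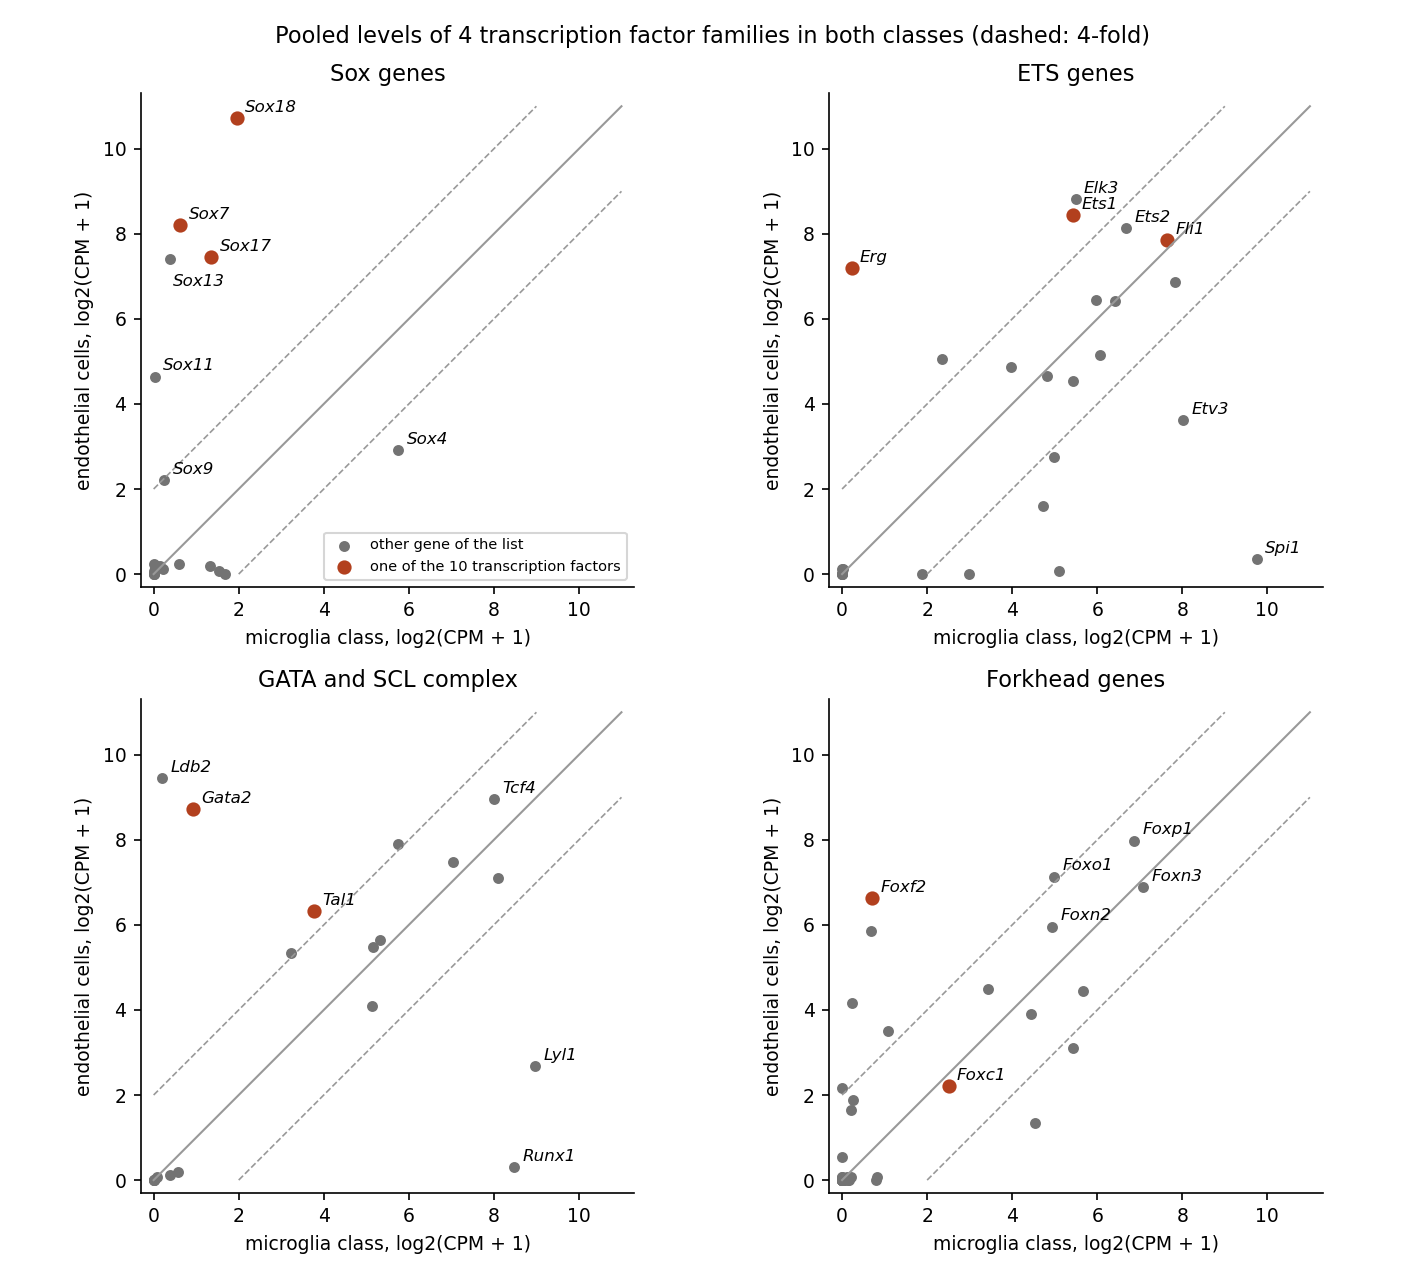
Pooled log2(CPM + 1) in endothelial cells (vertical) against the microglia class (horizontal) for Sox, ETS, GATA and SCL complex, and forkhead genes. Red points are the members and gray points the other genes of each list, with dashed lines at 4-fold. Sox18, Sox7, Sox17, Erg, Gata2 and Foxf2 lie at the upper left, Fli1 near the diagonal, and Spi1, Runx1 and Lyl1 at the lower right.

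Of 28 other transcription factors known from endothelium, 25 were measured, 15 of them 4-fold higher on the endothelial side and 0 on the microglia side, with a median log2 ratio of 2.83. Epas1, a hypoxia factor abundant in vessels, was at 1991 CPM in endothelial cells, against 6.08 CPM in the microglia class. Id3 and Id1, BMP-responsive inhibitors of helix-loop-helix factors, were at 1196 and 538 CPM in endothelial cells, against 24.9 and 8.23 CPM in the microglia class. Mef2c was at 549 CPM in endothelial cells, against 596 CPM in the microglia class. Its direction differed between plates, with 202 CPM in endothelial cells against 613 CPM in the microglia class on plate A, and 717 CPM against 587 CPM on plate B.

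Of 26 genes described elsewhere as targets of the members in endothelium, all 26 were measured, 21 of them 4-fold higher on the endothelial side and 1 on the microglia side, with a median log2 ratio of 6.47. The highest by CPM were Eng, which encodes a TGF-beta co-receptor, the sialomucin gene Emcn, and the VEGF receptor genes Flt1 and Kdr. Eng was at 4819 CPM in endothelial cells, against 115 CPM in the microglia class, and Emcn at 3226 CPM, against 3.30 CPM. Flt1 was at 3183 CPM in endothelial cells, against 7.87 CPM in the microglia class, and Kdr at 2888 CPM, against 4.82 CPM. Cxcr4, a chemokine receptor that leukocytes also use, was the 1 gene higher in the microglia class, with 1.26 CPM in endothelial cells and 20.6 CPM in the microglia class. Several of these genes are also endothelial core markers, so the list is no separate evidence about the members.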

How the data were processed

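The deposited values are whole-number read counts per gene in 391 cells for 56941 genes. The authors used SAMtools 1.16.1, featureCounts and Subread 1.4.6-p5 with genome build GRCm39, per the submitters' processing notes. What was done for alignment, annotation, strand and duplicate reads is not given in the sources used here. Reads of overlapping or antisense genes therefore cannot be told apart.

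Each column was matched to its class through the type code of the deposited cell table, which occurs 111 and 280 times, and 0 columns were left out. No cell was filtered and no doublet caller was run. Reads were summed per class and divided by its gene reads to give CPM. A gene counted as higher at 4-fold or more on log2(CPM + 1), among genes at 1 CPM or more in either class. That scale understates the ratio of low genes. Ratios without a log are of plain CPM. TPM used merged exon lengths of GENCODE M21, matched by symbol for 49083 genes, which hold 97.4% of endothelial and 97.5% of microglia-class gene reads. Clusters used 2000 variable genes, 15 neighbours, 20 components and Leiden resolution 0.5. The steps were tested on simulated counts.

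All 10 members are named. Of each other list the up to 4 genes with the highest pooled CPM in either class are named. That order takes no account of gene length, so a gene higher by TPM can go unnamed. For each member read in at least 50% of endothelial cells the 3 genes of highest rank correlation are named, without ribosomal protein, mitochondrial or predicted genes. The members and lists were chosen with earlier results of these data known. Alternatives were other scalings (TMM of edgeR 4.0.16, size factors of DESeq2 1.42.0), pseudocounts, cell weights, plates, thresholds, thinning, clusterings and cells left out. Leaving out the top cell of each member and the cells with mural markers was chosen after seeing the data. Software was R 4.3.3, scanpy 1.11.5, pandas 2.3.3, scipy 1.17.1, numpy 2.4.6 and Python 3.11.15.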

Additional observations from a re-analysis of the deposited data

How the results depend on the processing

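The number of the 10 genes at 4-fold or more in endothelial cells was 8 in the main comparison and 7 or 8 under all 19 alternatives. It was 7 within plate A (Erg lost), without plate B (Tal1 lost) and at an 8-fold mark (Tal1 lost). Fli1 and Foxc1 were never at 4-fold on the log2(CPM + 1) scale, while the plain ratio of Foxc1 within plate B was 4.39. Over 15 alternatives of scaling, pseudocount, weight and cells the log2 ratio was 5.75 to 9.06 for Sox7, 4.77 to 6.76 for Sox17, 7.74 to 9.57 for Sox18, 4.86 to 9.08 for Erg (plate A left out, with 1 endothelial read), 2.84 to 3.56 for Ets1, 6.17 to 8.71 for Gata2, 1.84 to 3.14 for Tal1 and 2.09 to 7.07 for Foxf2. It crossed 0 for Fli1 (-0.48 to 1.35) and Foxc1 (-1.38 to 1.98). DESeq2 size factors moved the median of all genes to -0.23, against -0.36, and that of the members to 6.11, against 6.01.

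Within plate A the counts higher in endothelial cells were 1 other Sox gene, 1 other ETS gene, 1 partner of Gata2 and Tal1, 3 other forkhead genes and 9 other endothelial factors, and those higher in the microglia class were 3, 12, 4, 1 and 4. Of the targets 19 were on the endothelial side and 3 on the other. Within plate B 2 other Sox genes, 1 other ETS gene, 2 partners, 4 forkhead genes, 13 endothelial factors and 20 targets were higher in endothelial cells, and 1, 11, 5, 4, 2 and 3 were higher in the microglia class. Of all genes 10.9% stood on the endothelial side and 46.5% on the microglia side within plate A, and 11.5% and 48.4% within plate B. Few endothelial cells (7 and 10) stand behind these counts, and the cause was not tested. No paired analysis was possible because the labels name no animal or replicate number, and the values within plates A and B, which hold both classes, are given in its place. Endothelial cells on plates C and D have no microglia-class cells beside them, so there plate and class cannot be told apart.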
